A study of Mus musculus with 12 samples.

Results

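The genes described here are the 43 genes of the deposited count table whose symbols mark them as heterogeneous nuclear ribonucleoproteins (hnRNPs), SR proteins, subunits of the splicing factor complexes SF3a and SF3b, or subunits of the U2 auxiliary factor (U2AF). They were chosen by symbol out of 17365 genes in the table, with earlier results of these data known. The symbols begin with Hnrnp, Srsf and a digit, Sf3a or Sf3b and a digit, or U2af. The pattern matched 44 rows, of which 1 pseudogene row was left out. The 43 genes are 20 hnRNPs, 11 SR proteins, 3 SF3a subunits, 6 SF3b subunits and 3 U2AF genes. All 43 passed the filter on low counts, as did 13312 genes in all.

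The RNA came from neural stem cell (NSC) cultures grown from the subventricular zone of young adult mice, 6 to 8 weeks old, and kept in serum-free medium with laminin. The line ANS4 is from the MF1 strain and the line BL6 from the C57BL/6 strain, so line and strain cannot be told apart. Each line was compared in 3 conditions: with EGF and FGF2 (EGF/FGF, 10 ng/ml of each), which keeps the cells cycling, with BMP4 alone (BMP, 10 ng/ml, the cells the study calls d-qNSCs), and with BMP4 and FGF2 together (BMP/FGF, 10 ng/ml of each, p-qNSCs). The BMP and BMP/FGF treatments lasted 3 days. There were 2 libraries for each line and condition, thus 4 for each condition and 12 in all. The labels do not say whether the replicates were separate cultures. The study states 2 biological replicates for the RNA-seq, without saying whether these are cultures or lines. The p-values thus measure the spread between these libraries, which may be technical.

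Pre-mRNA splicing begins when the U1 particle binds the start of an intron and U2AF, with the U2 particle that carries SF3a and SF3b, binds its end and branch point. SR proteins bind mainly exons and help these particles to settle there, whereas many hnRNPs coat introns and silence splice sites, so the balance between both families is known to set which exons are kept. Many of these genes also tune their own mRNA by splicing in exons that send the transcript to nonsense-mediated decay (NMD), and splicing factor mRNAs are commonly abundant in dividing neural progenitors.

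Libraries held between 18069052 and 19451818 estimated counts, so that 1 count was worth between 0.0516 and 0.0559 CPM (counts scaled to library size, with the trimmed mean of M-values, TMM). The pair of BMP libraries of line BL6 differed more than the other pairs, with a chi-square per degree of freedom of 12.2 against 2.12 to 4.68. The least abundant gene of the set was Srsf12, with levels between 0.832 and 2.46 CPM and at least 16 counts in every library.

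In GENCODE vM21 on GRCm38, which is the mm10 build that the study used, the 43 genes lie on 17 chromosomes. Hnrnpd and Hnrnpdl, which encode a binder of AU-rich mRNAs and its close relative, lie close together on chromosome 5 (chr5:99955935-99978938 and chr5:100033577-100039664, both on the minus strand). Hnrnpll and Srsf7 both lie on the minus strand of chromosome 17 (chr17:80029487-80062334 and chr17:80200080-80207307). Of the 43 genes, 23 (53.5%) have an annotated NMD transcript, against 28.5% of 12891 tested protein-coding genes, and 32 (74.4%) have an annotated retained-intron transcript, against 58.6%. Counts were summed over all transcripts of a gene, so these forms cannot be separated here. Hnrnpa1 has many processed pseudogenes, and how its reads were shared with near-identical copies is uncertain.

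The sequences upstream of the 5 genes that fell past a log2 fold change of 1.5 in BMP/FGF are shown first, because they are the genes on which the strongest differences rest. They are the 250 bases before the RefSeq start site on GRCm38.p6, read on the strand of the gene, and capitals mark matches to the motifs named after them, on either strand. They lie at chr2:75659009-75659258 (Hnrnpa3, plus), chr11:116853095-116853344 (Srsf2, minus), chr11:88047123-88047372 (Srsf1, plus), chr15:103240147-103240396 (Hnrnpa1, plus) and chr11:51606882-51607131 (Hnrnpab, minus). The Srsf1 window overlaps an exon of the long noncoding gene 2010015M23Rik, that of Srsf2 a retained-intron transcript of Mfsd11, and that of Hnrnpa3 a small RNA gene, Gm24574.
Hnrnpa3: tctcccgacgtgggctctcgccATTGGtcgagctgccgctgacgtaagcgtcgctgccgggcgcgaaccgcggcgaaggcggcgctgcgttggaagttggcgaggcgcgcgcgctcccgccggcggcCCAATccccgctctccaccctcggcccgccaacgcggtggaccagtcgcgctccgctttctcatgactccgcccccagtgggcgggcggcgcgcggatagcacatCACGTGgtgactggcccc
Srsf2: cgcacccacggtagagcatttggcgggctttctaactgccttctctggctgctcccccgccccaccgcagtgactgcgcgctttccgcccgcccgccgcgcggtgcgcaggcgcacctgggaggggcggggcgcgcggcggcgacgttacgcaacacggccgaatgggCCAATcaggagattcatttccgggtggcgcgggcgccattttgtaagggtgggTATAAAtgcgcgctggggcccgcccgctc
Srsf1: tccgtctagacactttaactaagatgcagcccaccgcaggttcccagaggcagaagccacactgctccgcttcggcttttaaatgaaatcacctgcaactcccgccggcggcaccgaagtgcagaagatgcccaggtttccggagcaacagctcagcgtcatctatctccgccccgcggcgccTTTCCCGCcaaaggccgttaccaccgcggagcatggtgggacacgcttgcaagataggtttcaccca
Hnrnpa1: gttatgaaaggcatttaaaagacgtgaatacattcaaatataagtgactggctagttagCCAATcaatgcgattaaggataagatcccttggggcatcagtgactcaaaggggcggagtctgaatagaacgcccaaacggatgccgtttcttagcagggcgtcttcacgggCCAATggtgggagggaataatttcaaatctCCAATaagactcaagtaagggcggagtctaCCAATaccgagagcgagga
Hnrnpab: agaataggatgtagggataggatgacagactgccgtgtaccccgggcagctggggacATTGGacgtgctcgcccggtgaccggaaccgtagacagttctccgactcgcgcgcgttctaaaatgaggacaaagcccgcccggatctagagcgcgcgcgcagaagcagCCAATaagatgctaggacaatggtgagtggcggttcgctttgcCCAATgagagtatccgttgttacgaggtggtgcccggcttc
Of the 43 genes, 38 had a RefSeq promoter entry, with 52 entries in all. The CCAAT box (CCAAT) was found in 48.1% of the 52 member windows and in 33.8% of the 32851 windows of all genes. The ETS motif CCGGAAGT was found in 17.3% against 2.88%, and the E2F motif TTTCCCGC in 11.5% against 0.895%. The other E2F form searched, TTTGGCGC, was in 0 of the 52 windows and in 0.417% of all windows, and the cAMP response element TGACGTCA in 0 of 52 and in 1.55%. The E-box CACGTG was in 5.77% against 6.02%, and the TATA box TATAAA in 7.69% against 12.4%. No motif contains another. Windows of member genes were richer in G and C than those of all genes (median 64.6% against 52.4%), and entries of 1 gene can overlap. Of the 5 printed windows, 4 held CCAAT, and that of Hnrnpa1, an hnRNP that binds exonic silencers, held it 4 times. The Srsf1 window held the E2F motif instead, starting 67 bases before the start site.

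The first question was how the splicing factors differed between cycling cells and BMP4-treated, non-cycling cells. Together, the 43 genes made up between 1.44% and 1.65% of all counts in the EGF/FGF libraries, and between 0.817% and 0.942% in the BMP libraries. Their share in the BMP/FGF libraries was between 0.755% and 0.82%, so neither treated group overlapped with the EGF/FGF libraries. The summed level was 15460 ± 1052 CPM (SD, n = 4) in EGF/FGF, 8528 ± 477 CPM in BMP and 8017 ± 235 CPM in BMP/FGF. In bulk RNA, fewer cells with a transcript and less of it per cell cannot be told apart, and CPM are shares of a library, not amounts per cell.

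In BMP against EGF/FGF, 38 of the 43 genes were lower (88.4%), 1 was higher and 4 were not called, by edgeR's quasi-likelihood test at a Benjamini-Hochberg adjusted p under 0.05 over all tested genes. Over all 13312 tested genes, 38.8% were lower and 40.8% higher. The median log2 fold change of the set was -0.78, against 0.02 for all tested genes. Among the 7986 tested genes whose mean over all libraries reached 20 CPM, a comparison added after the data were seen, 43.3% were lower and the median was -0.04. The 12 proliferation markers moved with the set: all 12 fell in BMP, with a median log2 fold change of -2.43, and their summed level went from 3091 to 3624 CPM in EGF/FGF to 538 to 761 CPM in BMP and 377 to 398 CPM in BMP/FGF. Their part in the result was not tested.

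In BMP/FGF against EGF/FGF, 38 of the 43 genes were again lower (88.4%) and 1 was higher, against 38% and 40.9% of all tested genes. The median was -0.93, against 0.02 for all tested genes. Past a log2 fold change of 1.5, 1 gene fell in BMP and 5 fell in BMP/FGF, against 6.95% and 6.08% of all tested genes, and 0 rose in either, against 10.9% and 10.6%. Both comparisons share the EGF/FGF libraries. The 4 treated libraries lay below all 4 EGF/FGF libraries for 36 genes in BMP and 36 in BMP/FGF, which was so for 34.8% and 36.9% of all tested genes. They lay above for 0 and 2 genes, against 36.3% and 39% of all tested genes. For each such gene, an exact two-sided permutation test over the 70 divisions of 4 against 4 libraries must give p = 0.0286, its smallest value. This follows from the lack of overlap and adds nothing to these counts. The divisions also mix the 2 lines.

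**Figure D1:**
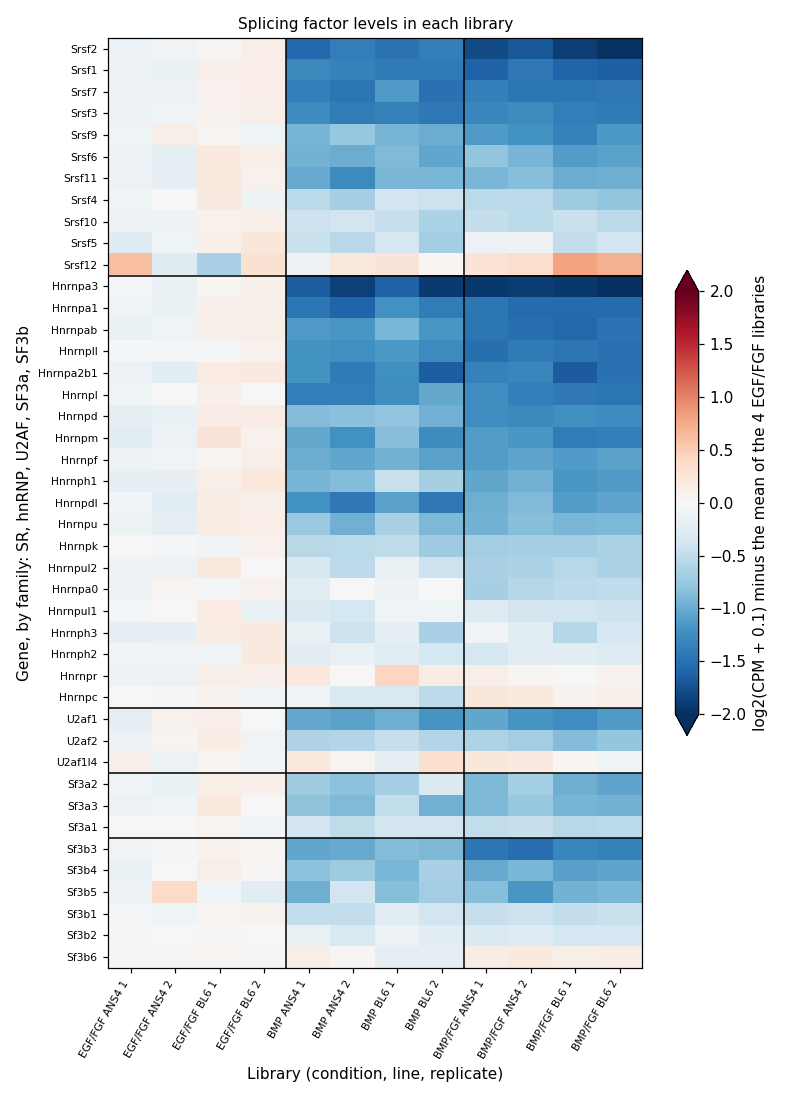
Level of each of the 43 genes (rows, by family) in each of the 12 libraries (columns, by condition, line and replicate), as log2(CPM + 0.1) minus the mean of the 4 EGF/FGF libraries of that gene, on a colour scale from -2 to 2. Most rows turn blue in all 8 treated libraries, while Srsf12, Hnrnpr, U2af1l4 and Sf3b6 are among the rows that stay near white or turn red.

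Among the SR proteins, 10 of 11 fell in BMP and the same 10 fell in BMP/FGF, against 38.8% and 38% of all tested genes. The SR proteins had medians of -0.97 and -0.98. Their summed level was between 2001 and 2355 CPM in EGF/FGF, between 1016 and 1097 CPM in BMP and between 971 and 1084 CPM in BMP/FGF. Srsf2, which activates exons and also acts in transcription elongation, stood at 230.2 and 241 CPM (ANS4) and 255 and 273 CPM (BL6) in EGF/FGF. It stood at 83.9 and 95.2 CPM (ANS4) and 89.6 and 95.3 CPM (BL6) in BMP and at 72.1 and 77.1 CPM (ANS4) and 67.5 and 63.5 CPM (BL6) in BMP/FGF. The 3 conditions did not overlap, with BMP/FGF the lowest. Srsf2 fell by 1.46 ± 0.073 (SE) on the log2 scale in BMP (adjusted p = 3.23e-12, edgeR) and by 1.83 ± 0.074 in BMP/FGF (adjusted p = 1.81e-13, edgeR).

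Srsf1, the founding SR protein and a promoter of exon inclusion, stood at 418 and 414 CPM (ANS4) and 491 and 500.2 CPM (BL6) in EGF/FGF. It was at 185 and 179 CPM (ANS4) and 171 and 170.5 CPM (BL6) in BMP and at 148 and 168 CPM (ANS4) and 149 and 146 CPM (BL6) in BMP/FGF. No treated library reached the lowest EGF/FGF library, and the BL6 libraries were the higher ones in EGF/FGF and the lower ones in BMP. The log2 fold change was -1.37 ± 0.074 in BMP and -1.57 ± 0.074 in BMP/FGF. Srsf3 and Srsf7, a closely related pair that also couple splicing to mRNA export, fell in both treated conditions: Srsf3 had log2 fold changes of -1.36 and -1.34, and Srsf7 of -1.36 and -1.42.

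The fall was smaller for other SR proteins. Srsf4 had log2 fold changes of -0.50 in BMP and -0.64 in BMP/FGF, and Srsf10, which acts as a repressor when it is dephosphorylated, -0.47 and -0.50. Srsf5 stood at 162 and 182 CPM (ANS4) and 207 and 227 CPM (BL6) in EGF/FGF, at 141 and 132 CPM (ANS4) and 154 and 121 CPM (BL6) in BMP and at 177 and 179.9 CPM (ANS4) and 137 and 148 CPM (BL6) in BMP/FGF. Its BMP/FGF values in ANS4 lay within the EGF/FGF range and those in BL6 below it. Srsf6, Srsf9 and Srsf11 lay between, with log2 fold changes from -1.03 to -0.90 in BMP and from -1.22 to -0.93 in BMP/FGF. Srsf12 was not called in any comparison, with log2 fold changes of 0.03 ± 0.26 and 0.49 ± 0.25, at a depth where only large differences could be seen. Without EGF/FGF ANS4 replicate 1 the latter was 0.77 (adjusted p = 0.00949, edgeR).

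Among the hnRNPs, 18 of 20 fell in BMP and 18 in BMP/FGF, against 38.8% and 38% of all tested genes. The hnRNPs had medians of -0.83 and -1.04. Their summed level was between 10383 and 11920 CPM in EGF/FGF, between 5597 and 6460 CPM in BMP and between 5454 and 5748 CPM in BMP/FGF. Hnrnpa3, of the A/B group that packages pre-mRNA and shuttles to the cytoplasm, had the largest fall of all 43 genes in both comparisons. It stood at 1686 and 1584 CPM (ANS4) and 1804 and 1864 CPM (BL6) in EGF/FGF, at 550.1 and 477 CPM (ANS4) and 566 and 458 CPM (BL6) in BMP and at 452 and 466 CPM (ANS4) and 457 and 428 CPM (BL6) in BMP/FGF. The treated conditions were far below EGF/FGF and overlapped with each other. The log2 fold change was -1.76 ± 0.078 in BMP (3.38-fold lower, adjusted p = 5.91e-13, edgeR) and -1.94 ± 0.078 in BMP/FGF (3.84-fold lower, adjusted p = 1.67e-13, edgeR).

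The other A/B genes did not all follow. Hnrnpa1 stood at 937 and 906 CPM (ANS4) and 1059 and 1069 CPM (BL6) in EGF/FGF, at 361 and 326 CPM (ANS4) and 429 and 374 CPM (BL6) in BMP and at 364 and 341 CPM (ANS4) and 337 and 341 CPM (BL6) in BMP/FGF, with log2 fold changes of -1.41 and -1.51. Hnrnpab, which binds single-stranded DNA as well as RNA, stood at 713 and 742 CPM (ANS4) and 845 and 850.1 CPM (BL6), then at 357 and 352 CPM (ANS4) and 415 and 351 CPM (BL6), then at 286 and 275 CPM (ANS4) and 264 and 283 CPM (BL6) in the same order, and the conditions did not overlap. Hnrnpa2b1, which sorts mRNAs and microRNAs, had log2 fold changes of -1.38 ± 0.11 and -1.46 ± 0.11. Hnrnpa0, an intronless member that binds AU-rich mRNA, stood apart from these. It was at 204 and 228 CPM (ANS4) and 215 and 232 CPM (BL6) in EGF/FGF, at 189 and 218 CPM (ANS4) and 205 and 221 CPM (BL6) in BMP, with overlap, and at 138 and 148 CPM (ANS4) and 153 and 154 CPM (BL6) in BMP/FGF, below all other libraries. Its log2 fold change was -0.08 ± 0.062 in BMP (adjusted p = 0.254, edgeR) and -0.57 ± 0.062 in BMP/FGF (adjusted p = 1.71e-07, edgeR).

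Other hnRNPs with large falls in both comparisons were Hnrnpl, a binder of CA repeats (-1.25 and -1.37), and its relative Hnrnpll, known for CD45 splicing in T cells (-1.21 and -1.46). Hnrnpf, Hnrnph1, Hnrnph2 and Hnrnph3 all bind runs of G, and their values were spread: Hnrnpf had -1.02 and -1.09, Hnrnph1 -0.73 and -1.07, Hnrnph2 -0.23 and -0.27, and Hnrnph3 -0.34 and -0.30 (log2 fold changes in BMP and in BMP/FGF). Hnrnpk, a binder of C-rich RNA and DNA, was the most abundant of the set per kilobase of coding transcript in every condition, at 992 CPM per kb in EGF/FGF, 664 in BMP and 625 in BMP/FGF, and had log2 fold changes of -0.58 and -0.67. On the same scale the order below it differed between conditions: Hnrnpa3 and Hnrnpa2b1 followed in EGF/FGF (904 and 668 CPM per kb), and Hnrnpc followed in BMP and BMP/FGF (309 and 420 CPM per kb).

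Hnrnpc and Hnrnpr were the hnRNPs that did not fall in both comparisons besides Hnrnpa0. Hnrnpc, which binds runs of U and keeps cryptic exons out of mRNA, stood at 689 and 681 CPM (ANS4) and 726 and 666 CPM (BL6) in EGF/FGF, at 658 and 562 CPM (ANS4) and 559 and 480.2 CPM (BL6) in BMP and at 809 and 792 CPM (ANS4) and 726 and 738 CPM (BL6) in BMP/FGF. All BMP libraries were below the EGF/FGF libraries, and all BMP/FGF libraries were above them, though the closest values round to the same number. Its log2 fold change was -0.29 ± 0.072 in BMP (adjusted p = 0.00121, edgeR) and 0.15 ± 0.072 in BMP/FGF (adjusted p = 0.0686, edgeR). The latter passed the threshold without BMP BL6 replicate 2 (0.15, adjusted p = 0.0344, edgeR) or EGF/FGF BL6 replicate 1 (0.20, adjusted p = 0.0276, edgeR). Hnrnpr, which has roles in axonal mRNA transport, stood at 151 and 149 CPM (ANS4) and 175 and 173 CPM (BL6) in EGF/FGF and at 186 and 160.1 CPM (ANS4) and 217 and 178 CPM (BL6) in BMP. These ranges overlapped, and its rise of 0.20 ± 0.074 (adjusted p = 0.0217, edgeR) was lost in 6 of 22 alternative settings, among them without BMP BL6 replicate 1 (0.13, adjusted p = 0.109), BMP ANS4 replicate 1 (0.16, adjusted p = 0.0778) or either ANS4 replicate of EGF/FGF (0.18 and 0.17, adjusted p = 0.0599 and 0.0651).

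**Figure D2:**
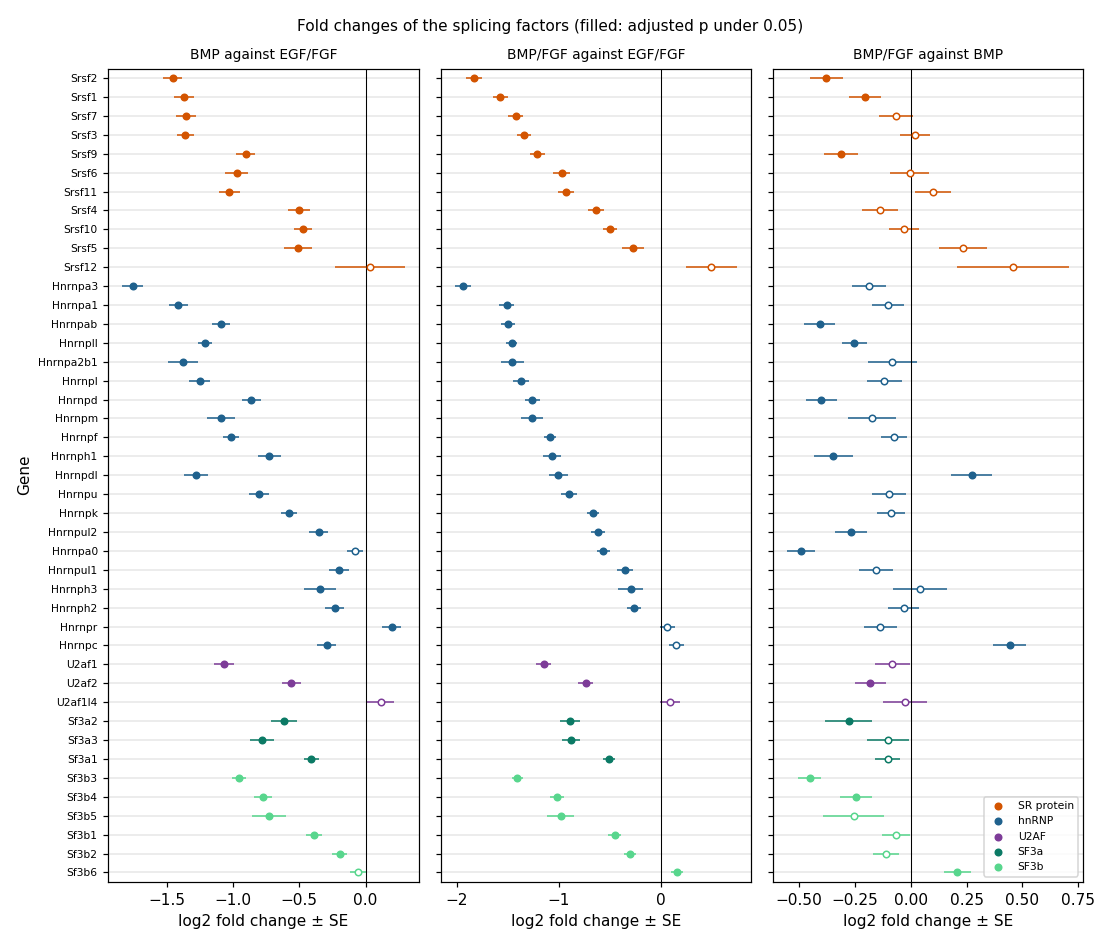
Log2 fold change ± SE (x axis) of each of the 43 genes (y axis, coloured by family) in the 3 comparisons, with filled points at an adjusted p under 0.05. In each comparison with EGF/FGF 38 points are filled on the negative side and 1 on the positive side. In BMP/FGF against BMP these counts are 13 and 3.

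Of the U2AF genes, U2af1, the subunit that reads the AG at the intron's end, had log2 fold changes of -1.07 ± 0.076 in BMP and -1.15 ± 0.076 in BMP/FGF. U2af2, the subunit that binds the pyrimidine tract, had -0.56 ± 0.07 and -0.74 ± 0.07. U2af1l4, a paralog of U2af1 that can take its place in the heterodimer, was not called in any comparison. It stood at 22.4 and 19.2 CPM (ANS4) and 21.7 and 20.1 CPM (BL6) in EGF/FGF, at 24.1 and 21.7 CPM (ANS4) and 18.4 and 26.0 CPM (BL6) in BMP and at 24.3 and 23.5 CPM (ANS4) and 21.4 and 19.5 CPM (BL6) in BMP/FGF, which overlapped throughout.

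All 3 SF3a genes fell in both comparisons, with log2 fold changes between -0.78 and -0.41 in BMP and between -0.89 and -0.51 in BMP/FGF. Of the 6 SF3b genes, 5 fell in each, and 38.8% and 38% of all tested genes were lower. Sf3b3, a large scaffold subunit, stood at 249 and 255 CPM (ANS4) and 274 and 268 CPM (BL6) in EGF/FGF, at 127 and 129.9 CPM (ANS4) and 143 and 139.7 CPM (BL6) in BMP and at 96.3 and 90.9 CPM (ANS4) and 105 and 102 CPM (BL6) in BMP/FGF, and the 3 conditions did not overlap. Its log2 fold changes were -0.96 and -1.41. Sf3b1, which clamps the branch point and is often mutated in myeloid disease, had -0.39 and -0.46, and Sf3b2 had -0.20 and -0.31. Values within the complex were thus spread, and differences between subunits were not tested.

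Sf3b6, the small subunit next to the branch point adenosine, was not called lower in either comparison, except in BMP in the BL6 libraries alone (-0.21, adjusted p = 0.0179, edgeR). It stood at 87.4 and 91.9 CPM (ANS4) and 92.3 and 89.0 CPM (BL6) in EGF/FGF, at 97.5 and 91.6 CPM (ANS4) and 79.7 and 78.9 CPM (BL6) in BMP and at 100.1 and 103 CPM (ANS4) and 98.1 and 99.7 CPM (BL6) in BMP/FGF. All BMP/FGF libraries were above all others. The rise against EGF/FGF was 0.15 ± 0.062 (adjusted p = 0.0324, edgeR), and it was past the threshold in 10 of 22 alternative settings. It was lost without any 1 of 6 libraries, namely the 4 BMP/FGF libraries and the ANS4 replicates 1 and 2 of EGF/FGF (0.12 to 0.16, adjusted p from 0.0509 to 0.125).

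Across the 43 genes, the 23 with an annotated NMD transcript had median log2 fold changes of -0.97 in BMP and -1.01 in BMP/FGF, and the 20 without one -0.54 and -0.75. These are descriptions, since the genes share libraries and families. The mean level of a gene and its log2 fold change had a Spearman's rho of -0.20 in both comparisons (n = 43 genes, all from the same 12 libraries).

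**Figure D3:**
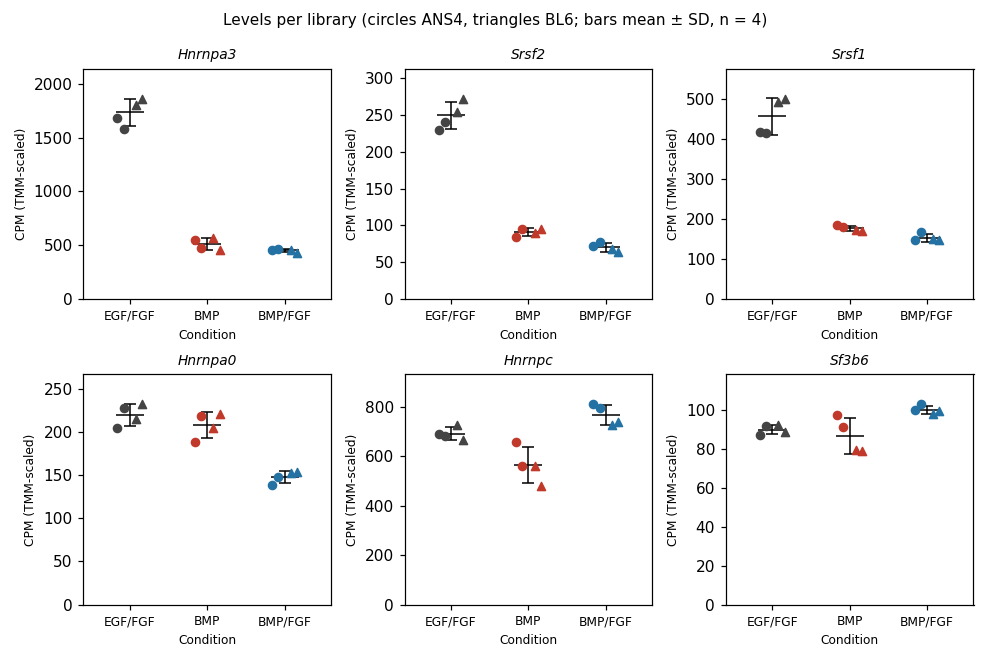
CPM (y axis, from 0) of Hnrnpa3, Srsf2, Srsf1, Hnrnpa0, Hnrnpc and Sf3b6 by condition (x axis) in each library, with circles for ANS4, triangles for BL6 and bars for the mean ± SD (n = 4). The first 3 genes drop in both treated conditions, Hnrnpa0 drops only in BMP/FGF, and Hnrnpc and Sf3b6 are highest in BMP/FGF.

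The second question was how the BMP/FGF cells differed from the BMP cells. Of the 43 genes, 13 were lower in BMP/FGF than in BMP (30.2%), 3 were higher and 27 were not called, against 21.3% lower and 20.1% higher among all tested genes. The median log2 fold change was -0.10, against -0.00355 for all tested genes, and 0 genes passed 1.5 in either direction, against 0.684% (lower) and 0.901% (higher) of all tested genes. The share lower was near that of all genes. All 12 proliferation markers were also called lower in BMP/FGF than in BMP (median -0.79), and their part in the values of the set was not tested. The libraries of both conditions did not overlap for 12 genes that were lower and 3 that were higher, against 18% and 17.6% of all tested genes.

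The genes lower in BMP/FGF than in BMP were 6 hnRNPs, 3 SR proteins (Srsf1, Srsf2 and Srsf9), 2 SF3b subunits, 1 SF3a subunit and U2af2. The lowest was Hnrnpa0, with a log2 fold change of -0.49 ± 0.063 (adjusted p = 9.06e-06, edgeR), followed by Sf3b3 with -0.45 ± 0.051 (adjusted p = 2.45e-06, edgeR), Hnrnpab with -0.41 ± 0.068, Hnrnpd with -0.40 ± 0.071 and Srsf2 with -0.38 ± 0.074. Hnrnpd, which directs AU-rich mRNAs to decay, stood at 153 and 158 CPM (ANS4) and 163 and 145 CPM (BL6) in BMP and at 118 and 115 CPM (ANS4) and 119.6 and 117 CPM (BL6) in BMP/FGF. Of the 13 genes, 12 had also fallen in BMP against EGF/FGF, and Hnrnpa0 was the other one. Fitted within each line, all 13 were called lower in BL6, while Hnrnph1 (-0.11), Hnrnpul2 (-0.22), Sf3a2 (-0.02), Sf3b4 (-0.21) and U2af2 (-0.06) were not called in ANS4 (adjusted p between 0.0626 and 0.907, edgeR). The libraries of BMP and BMP/FGF overlapped for Sf3a2. U2af2 was close to the threshold (-0.18, adjusted p = 0.0492, edgeR).

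The 3 genes with more mRNA in BMP/FGF were Hnrnpc, with 0.44 ± 0.072 (adjusted p = 1.13e-04, edgeR), Hnrnpdl, with 0.27 ± 0.091 (adjusted p = 0.0233, edgeR), and Sf3b6, with 0.21 ± 0.062 (adjusted p = 0.0124, edgeR). Hnrnpdl stood at 266 and 238 CPM (ANS4) and 308 and 299 CPM (BL6) in EGF/FGF, at 119.7 and 103 CPM (ANS4) and 131 and 102 CPM (BL6) in BMP and at 141 and 151 CPM (ANS4) and 127 and 132 CPM (BL6) in BMP/FGF. It was thus higher in BMP/FGF than in BMP, with overlap, but below EGF/FGF in both, while the nearby Hnrnpd was lower in BMP/FGF than in BMP. The call on Hnrnpdl was lost without BMP ANS4 replicate 2, BMP BL6 replicate 2 or either ANS4 replicate of BMP/FGF (0.21 to 0.24, adjusted p from 0.0684 to 0.0909). It was also lost in the BL6 libraries alone (0.15, adjusted p = 0.244, edgeR) and with library totals (0.23, adjusted p = 0.061, edgeR). The call on Sf3b6 was lost without BMP/FGF BL6 replicate 2 (0.19, adjusted p = 0.0518) and in the ANS4 libraries alone (0.10, adjusted p = 0.197, edgeR). The call on Hnrnpc held in every alternative run. Srsf5 (0.23 ± 0.11, adjusted p = 0.0931, edgeR) and Srsf12 (0.46 ± 0.25, adjusted p = 0.157, edgeR) were not called, though Srsf5 was without BMP BL6 replicate 1 (0.30, adjusted p = 0.0498) or BMP/FGF BL6 replicate 1 (0.31, adjusted p = 0.0356). Hnrnpa3 (-0.19, adjusted p = 0.0594, edgeR) was called lower without BMP ANS4 replicate 2 (-0.22, adjusted p = 0.0478) or BMP BL6 replicate 2 (-0.25, adjusted p = 0.0118).

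Of the 43 genes, 12 were lower in all 3 comparisons, 24 were lower in both comparisons with EGF/FGF and not called between BMP/FGF and BMP, and 2 (Srsf12 and U2af1l4) were called in none. The remaining 5 were Hnrnpa0, Hnrnpc, Hnrnpdl, Hnrnpr and Sf3b6, described above.

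The third question was whether both lines responded alike. Fitted within each line, the median log2 fold change of the 43 genes was -0.70 in ANS4 and -0.82 in BL6 for BMP against EGF/FGF, -0.74 and -1.13 for BMP/FGF against EGF/FGF, and -0.03 and -0.18 for BMP/FGF against BMP. Over the 43 genes the log2 fold changes of the lines had a Pearson's r of 0.93, 0.91 and 0.65 in the 3 comparisons (0.94, 0.94 and 0.63 over all 13312 tested genes, which are not independent replicates). In the EGF/FGF libraries the summed level was 14609 and 14490 CPM in ANS4 and 16368 and 16371 CPM in BL6. In the BMP/FGF libraries it was 8184 and 8248 CPM in ANS4 and 7762 and 7875 CPM in BL6, so BL6 was the higher line in EGF/FGF and the lower one in BMP/FGF. The summed level of the proliferation markers had the same order, with 3091 and 3095 CPM in ANS4 and 3624 and 3616 CPM in BL6 in EGF/FGF, and 398 and 388 CPM in ANS4 and 377 and 379 CPM in BL6 in BMP/FGF. Their median difference between lines, BL6 minus ANS4, was -0.25 in BMP/FGF against EGF/FGF and -0.44 in BMP/FGF against BMP, where 6 of the 12 were called lower in BL6, but 0.19 in BMP against EGF/FGF. Their part in the line differences of the set was not tested.

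The difference between the lines was tested as an interaction term. It passed an adjusted p of 0.05 for 3 genes in BMP against EGF/FGF (9.02% of all tested genes did), for 8 genes in BMP/FGF against EGF/FGF (4.98%) and for 4 genes in BMP/FGF against BMP (13.5%). Out of 43 genes, these counts are a smaller share than that of all tested genes in the first and the last comparison and a larger one in the other. All 15 values were negative, so the log2 fold change was lower in BL6 than in ANS4. Among all tested genes that passed, it was lower in BL6 for 483 of 1201, 243 of 663 and 913 of 1801 genes, in the same order. The 3 comparisons share libraries, so the 15 values are not independent. Srsf5 had the largest difference, -0.66 ± 0.13 (adjusted p = 0.00789, edgeR), with log2 fold changes in BMP/FGF against EGF/FGF of 0.05 in ANS4 and -0.61 in BL6. Hnrnph3 had 0.02 in ANS4 and -0.61 in BL6, a difference of -0.63 ± 0.17 (adjusted p = 0.0379, edgeR). This difference was not called by limma on rlog values (-0.66, adjusted p = 0.128) or without a filter (-0.63, adjusted p = 0.0851, edgeR). With 1 library left out, Hnrnph3 had differences between -0.77 and -0.51. Its levels were 55.6 and 56.0 CPM (ANS4) and 69.6 and 70.8 CPM (BL6) in EGF/FGF and 59.4 and 53.8 CPM (ANS4) and 41.9 and 49.8 CPM (BL6) in BMP/FGF. Thus the call that Srsf5 and Hnrnph3 fell in BMP/FGF came with a fitted fall in BL6 and values near 0 in ANS4.

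The other genes that differed between lines in BMP/FGF against EGF/FGF fell in both. Hnrnpm, a binder of GU-rich introns, had -0.96 in ANS4 and -1.56 in BL6, and Hnrnpa2b1 had -1.16 and -1.75. Without a filter, neither of these line differences was called (adjusted p = 0.0568 and 0.0616, edgeR). Srsf6, which activates exons and had the smallest adjusted p of the 8, stood at 209 and 199.8 CPM (ANS4) and 260 and 246 CPM (BL6) in EGF/FGF and at 131 and 119.7 CPM (ANS4) and 105 and 108 CPM (BL6) in BMP/FGF. Its log2 fold change was -0.71 in ANS4 and -1.25 in BL6, a difference of -0.54 ± 0.098 (adjusted p = 0.00454, edgeR). Hnrnph1, Srsf11 and Srsf1 had differences of -0.46, -0.39 and -0.35.

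In BMP against EGF/FGF the 3 genes were Srsf1, with a difference of -0.34 ± 0.09 (adjusted p = 0.0238, edgeR), Srsf10, with -0.34 ± 0.094, and Hnrnpd, with -0.33 ± 0.091. In BMP/FGF against BMP they were Sf3a2 (-0.53 ± 0.15), Hnrnph1 (-0.49 ± 0.10, adjusted p = 0.00464, edgeR), Hnrnpl (-0.40 ± 0.10) and Srsf4 (-0.39 ± 0.12). Hnrnph1 stood at 149 and 156 CPM (ANS4) and 209 and 179 CPM (BL6) in BMP and at 138 and 145 CPM (ANS4) and 126 and 130.1 CPM (BL6) in BMP/FGF, so the BL6 line was higher in BMP and lower in BMP/FGF. For Sf3a2, 1 library decided much of the value: BMP BL6 replicate 2 stood at 71.2 CPM and the other BMP libraries between 49 and 54.1 CPM, and without it the difference was -0.31 (adjusted p = 0.0691).

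These counts of line differences moved with single libraries. The 3 in BMP against EGF/FGF became 17 without BMP BL6 replicate 1, 1 without BMP BL6 replicate 2 or EGF/FGF BL6 replicate 1, and 0 without BMP ANS4 replicate 1, EGF/FGF BL6 replicate 2 or either ANS4 replicate of EGF/FGF. The 8 in BMP/FGF against EGF/FGF became 17 without either BL6 replicate of BMP, which enter that comparison only through the shared scaling and spread, and between 1 and 4 without any 1 of the 8 libraries compared. The 4 in BMP/FGF against BMP became 14 without BMP BL6 replicate 2, 2 without BMP ANS4 replicate 2 or either ANS4 replicate of BMP/FGF, and 1 without either BL6 replicate of BMP/FGF. The counts of genes that fell moved less: leaving out any 1 library gave between 36 and 38 in BMP, between 36 and 38 in BMP/FGF and between 10 and 13 in BMP/FGF against BMP. The 5 genes past 1.5 in BMP/FGF became 3 without BMP/FGF BL6 replicate 1 or EGF/FGF BL6 replicate 2.

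**Figure D4:**
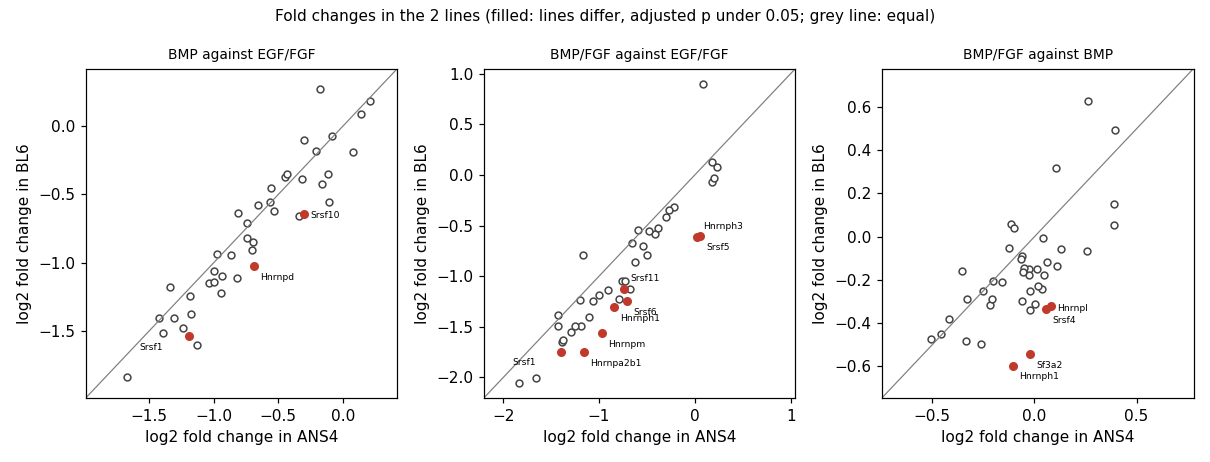
Log2 fold change in ANS4 (x axis) against that in BL6 (y axis) for the 43 genes in the 3 comparisons, with filled, named points where the lines differed at an adjusted p under 0.05 and a grey line where both are equal. All 15 filled points lie below the grey line.

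The rest of the splicing machinery was described with gene lists under other symbols. In BMP against EGF/FGF, where 38.8% of all tested genes were lower, 14 of 15 genes of the U1 particle and the Sm core fell (median -0.84), from Snrpd1, an Sm ring protein, at -1.81 to Luc7l at 0.10. Of 23 genes of the U4/U6.U5 tri-snRNP, 18 fell and 3 rose (median -0.76), from Lsm2, a ring protein that binds the end of U6, at -2.08 to Eftud2, a GTPase of U5, at 0.31. Of 15 other U2 partners, 11 fell and 2 rose (median -0.56), from Snrpa1 at -1.42 to Rbm5 at 0.55. Of 21 tested genes on a list of hnRNP relatives and other RNA-binding proteins, 15 fell and 1 rose (median -0.75). Values ran from Ybx3 at -1.71 to Cirbp, a cold-inducible RNA-binding protein, at 0.94.

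Further lists are read against the 38.8% lower and 40.8% higher of all tested genes. Of 24 Prp19 complex and catalytic step factors, 13 fell (54.2%) and 3 rose (12.5%, median -0.20), from Ppil1 at -1.24 to Slu7 at 0.70. Of 21 SR-related proteins, 14 fell and 1 rose (median -0.40), with Tra2b, a partner of SR proteins on exonic enhancers, the lowest at -1.12. Of 10 tested SR protein kinases and importers, 5 fell (50%) and 3 rose (30%, median -0.05), from Srpk1, which phosphorylates SR proteins in the cytoplasm, at -1.29 to Dyrk1b at 0.72. These shares were the nearest to those of all tested genes among the 6 lists given here. Of 9 genes of the minor spliceosome 6 fell and 1 rose, of 5 of the exon junction complex 4 fell and 0 rose, and of 10 NMD factors 6 fell and 1 rose, with medians of -0.44, -0.51 and -0.42. In BMP/FGF against EGF/FGF these 10 lists had medians between -0.81 and -0.09, and in BMP/FGF against BMP between -0.06 and 0.09.

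Among tissue splicing regulators, more rose than fell in BMP. Of 26 tested, 15 rose (57.7%) and 8 fell (30.8%, median 0.42), against 40.8% and 38.8% of all tested genes. In BMP/FGF against EGF/FGF 11 rose and 11 fell (42.3% each, median -0.20), near the 40.9% and 38% of all tested genes. In BMP/FGF against BMP 0 rose and 18 fell (69.2%, median -0.44), against 20.1% and 21.3% of all tested genes. Srrm4, which drives neuronal microexons, had 4.59 ± 0.33 in BMP against EGF/FGF and -2.67 ± 0.26 in BMP/FGF against BMP. Its mean level was 0.246 CPM in EGF/FGF, close to the 0.155 to 0.156 CPM that 3 counts give there, 6.18 CPM in BMP and 0.944 CPM in BMP/FGF. Ptbp1, an hnRNP by another symbol (hnRNP I) that represses neuronal exons, was the lowest of the list in BMP/FGF against EGF/FGF, at -1.35 ± 0.06, and at -0.86 ± 0.059 in BMP.

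**Figure D5:**
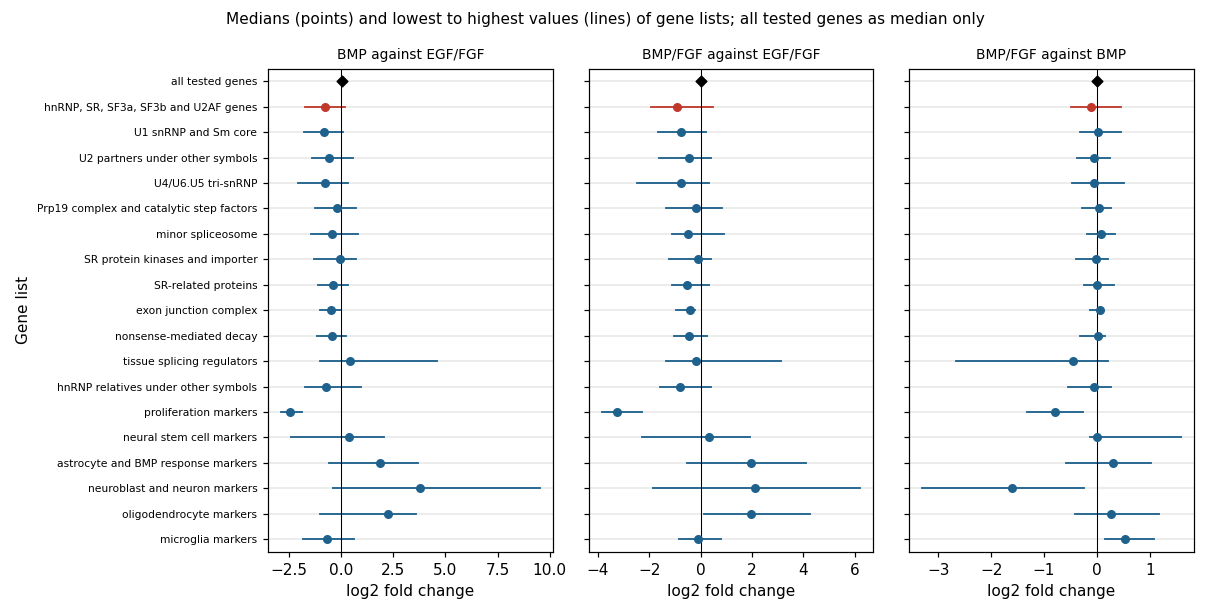
Median (points) and lowest to highest log2 fold change (lines, x axis) of the 43 genes in red, of 17 other gene lists in blue and of all tested genes (diamond, median only), in the 3 comparisons. The medians of the core spliceosome lists lie to the left of 0 in both comparisons with EGF/FGF, though the lines of several cross 0, and the median of the proliferation markers lies farthest to the left in those comparisons.

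The cells were checked against markers. Of all tested genes, 40.8% rose and 38.8% fell in BMP, and 40.9% and 38% in BMP/FGF, both against EGF/FGF. Between BMP/FGF and BMP, 20.1% rose and 21.3% fell. Of 8 neural stem cell markers 5 rose and 3 fell in BMP and in BMP/FGF, with summed levels between 7258 and 7875 CPM in EGF/FGF, 9107 and 10373 CPM in BMP and 11057 and 11637 CPM in BMP/FGF. Astrocyte and BMP response markers rose in 7 of 8 cases in both comparisons with EGF/FGF (summed level between 1144 and 1988, 5935 and 7767, and 11455 and 12382 CPM, in the same order). Neuroblast and neuron markers rose in 6 of 7 tested cases in both and fell in 6 of 7 in BMP/FGF against BMP (between 581 and 614, 1385 and 2167, and 983 and 1071 CPM). Of 4 tested oligodendrocyte markers 3 rose in both (between 192 and 231, 635 and 673, and 706 and 729 CPM). Of 12 microglia markers 7 were in the table (summed level between 59 and 69.6, 57.8 and 68.4, and 79.8 and 86.7 CPM) and 4 were tested, with Cx3cr1, Csf1r and Tmem119 at or below 0.516 CPM in every library and Csf1r at 0 in all BMP libraries. The part of these markers in the fall of the splicing factors was not tested.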

How the data were processed

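RNA-seq of 12 NSC libraries (2 lines, 3 conditions) was analysed. The authors trimmed reads with Trim Galore 0.5.0, quantified them with kallisto 0.44.0 on the mm10 transcriptome and summed them per gene with tximport. The deposited estimated counts per gene are whole numbers and were used as they are. The deposited log2 values are the authors' DESeq2 rlog values (DESeq2 1.27.32), and were used in 1 alternative. The sources used here do not give the strand setting.

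The 43 genes and all lists were chosen with earlier results of these data known. Counts were filtered with filterByExpr, scaled by TMM (levels are CPM on these sizes) and fitted with condition and line in edgeR 4.0.16 (R 4.3.3, quasi-likelihood test, Benjamini-Hochberg adjustment over 13312 genes, 4053 genes not tested). Line differences were interaction terms in a fit with 1 mean per line and condition. Calls required an adjusted p under 0.05. Single levels were tested on log2(CPM + 0.1) by exact permutation. Genes named were the 5 highest and 5 lowest of the set in each comparison, those past a log2 fold change of 1.5, the 5 largest line differences, the 3 most abundant and the extremes of other lists. Others were named for their family, after their values were seen. The scripts were tested on simulated counts. Alternatives were DESeq2 1.42.0 (size factors, Wald test), library totals, limma 3.58.1 on rlog values, no filter, no line term, a replicate block, fits restricted to the 8 libraries of a comparison or to 1 line, and leaving out every library in turn. Sequences came from RefSeq (GRCm38.p6) and positions from GENCODE vM21. Intervals between libraries cover their spread only, and depth was between 18069052 and 19451818 counts per library. Protein sequences were not used here.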

Additional observations from a re-analysis of the deposited data

Results flagged for a closer look

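Within a condition of 4 libraries, 6 of 129 sets of values held 1 library that stood far from the other 3 (Dixon's test, which chance passes in about 1 of 20 groups). Hnrnpa1 was at 364 CPM in BMP/FGF ANS4 replicate 1 (others 337 to 341), and Hnrnpab at 415 CPM in BMP BL6 replicate 1 (others 351 to 357). Hnrnph2 was at 236 CPM (others 195 to 197) and Hnrnpll at 175 CPM (others 162 to 163) in EGF/FGF BL6 replicate 2. Sf3a1 was at 142 CPM in BMP ANS4 replicate 2 (others 154 to 157), and Srsf1 at 168 CPM in BMP/FGF ANS4 replicate 2 (others 146 to 149).

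The log2 fold changes of 15 of 129 gene and comparison pairs differed between lines by the interaction test, and all were lower in BL6. In BMP against EGF/FGF the differences were -0.33 for Hnrnpd, -0.34 for Srsf1 and -0.34 for Srsf10. In BMP/FGF against EGF/FGF they were -0.59 for Hnrnpa2b1, -0.46 for Hnrnph1, -0.63 for Hnrnph3, -0.60 for Hnrnpm, -0.35 for Srsf1, -0.39 for Srsf11, -0.66 for Srsf5 and -0.54 for Srsf6. In BMP/FGF against BMP they were -0.49 for Hnrnph1, -0.40 for Hnrnpl, -0.53 for Sf3a2 and -0.39 for Srsf4.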

How the results depend on the processing

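The counts of genes that fell stayed between 36 and 38 in BMP, 36 and 38 in BMP/FGF, and 10 and 19 in BMP/FGF against BMP over the 22 alternatives. Another scaling moved the median of all genes by at most 0.044 (log2). The 1 gene higher in BMP became 0 with limma on rlog values and in BL6 alone, and 0 to 1 with a library left out. The 1 gene higher in BMP/FGF became 0 with DESeq2 size factors, library totals, the DESeq2 Wald test, limma on rlog values and the replicate block, 2 with only the 8 libraries compared, 3 in ANS4 alone, and 0 to 2 with a library left out. The 1 gene past 1.5 in BMP became 4 in BL6 alone. The 5 in BMP/FGF became 2 in ANS4 alone and 11 in BL6 alone, and 3 to 6 with a library left out. Line differences in BMP against EGF/FGF went from 3 to 1 with only the 8 libraries compared, and 0 to 17 with a library left out. Those in BMP/FGF against EGF/FGF went from 8 to 5 with limma on rlog values, 3 without a filter and 21 with only the 8 libraries compared, and 1 to 17 with a library left out. Those in BMP/FGF against BMP went from 4 to 10 with library totals, 2 without a filter, and 1 to 14 with a library left out. The causes were not tested. Of 770 values under alternatives, from 35 gene and comparison pairs, 728 were called or not called as in the main fit. A call was lost in 26 and gained in 16, and 0 changed sign where either fit called the gene. Signs of uncalled values did change, as for Srsf12 in BMP against EGF/FGF (-0.20 to 0.32). Of 228 values of line differences, 159 kept the call and 69 lost it. The labels do not say whether replicate numbers pair the libraries, which were treated as unpaired. Correlations of replicate deviations between conditions lay between -0.18 and 0.30, the highest for BMP and EGF/FGF in ANS4. They cannot settle whether pairs exist. With the replicate block 39, 38 and 13 of the 39, 39 and 16 called genes of the set remained. With 2 libraries per line and condition, line differences are the least secure values.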
